A study of Mus musculus with 6 samples.

Results

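The miR-322, miR-503 and miR-450 cluster is a group of miRNA hairpins on the mouse X chromosome that lie close together on one strand. Its members were all mature miRNAs named mmu-miR-322, mmu-miR-503, mmu-miR-351, mmu-miR-542, mmu-miR-450a or mmu-miR-450b, of either arm, which gave 12 of the 1039 mature miRNAs in the table of liver miRNA levels. Membership was decided by name and not by level. Small RNA was sequenced from the liver of 6 wild type ICR mice aged 30 weeks, 3 of the J group and 3 of the M group, with 1 library per mouse. ICR is an outbred stock. Every mouse had been on a high-fat diet (HFD) for 12 weeks. For the next 8 weeks the J group received JTXK granule, a Chinese herbal formula, by gavage, and the M group received sterile water. Both groups are thus HFD-fed, and mice on a standard diet were not analysed here. Each library comes from whole liver, in which fewer cells of a type and less RNA per cell cannot be told apart.

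A miRNA hairpin is cut by Drosha and Dicer into a short duplex. One strand, the 5p or the 3p arm, is usually kept in Argonaute as the guide, and the other arm is mostly degraded. The guide finds its targets mainly through its seed, bases 2 to 8. miR-322 is the mouse counterpart of human miR-424. With miR-503 it belongs to the extended miR-15/16 group, which represses cyclins and Cdc25a, and the pair is best known for slowing the cell cycle when muscle precursors differentiate. miR-351 carries the seed of miR-125, and miR-542-3p is known to repress Birc5 (survivin), an inhibitor of apoptosis.

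The sequences that set these roles are printed from RefSeq (GRCm38.p6), which held all 12 members, with the seed in capitals. The first set shows how miR-322-5p and miR-503-5p relate to miR-16-5p, the most abundant miRNA here with this seed. miR-322-5p and miR-16-5p have the same seed, and miR-503-5p has one that is close to it.
mmu-miR-322-5p: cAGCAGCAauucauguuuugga
mmu-miR-503-5p: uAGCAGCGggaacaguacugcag
mmu-miR-16-5p: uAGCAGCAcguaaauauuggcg

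The next pair shows the seed that miR-351-5p has in common with miR-125b-5p.
mmu-miR-351-5p: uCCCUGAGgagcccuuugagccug
mmu-miR-125b-5p: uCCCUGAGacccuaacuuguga

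The 3p arms of Mir450-1 and Mir450b are shown because they are nearly the same. They share a seed and their first 18 bases, and 20 of 22 positions in all, so that short reads of one can be taken for the other.
mmu-miR-450a-1-3p: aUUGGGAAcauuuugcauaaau
mmu-miR-450b-3p: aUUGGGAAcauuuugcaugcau

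The Mir322 hairpin, on which the comparison of the arms turns, lies at chrX:53054255-53054349 on the minus strand of GRCm38 and is 95 bases long. Capitals here mark miR-322-5p, at bases 23 to 44 of the hairpin, and miR-322-3p, at bases 61 to 81.
Mir322 hairpin: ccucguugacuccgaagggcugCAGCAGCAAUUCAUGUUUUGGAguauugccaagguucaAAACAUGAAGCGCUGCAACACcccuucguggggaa

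All 7 hairpins lie on the minus strand within 6353 bases, in the order Mir322, Mir503, Mir351, Mir542, Mir450-2, Mir450-1 and Mir450b. Mir322 and Mir503 are 200 bases apart, and 630 bases part Mir503 from Mir351. A gap of 3767 bases follows before Mir542, and the last 3 hairpins lie 54 and 75 bases apart. In the RefSeq annotation Mir322, Mir503 and Mir351 fall within the noncoding RNA gene C430049B03Rik (chrX:53053112-53057190). GENCODE M21 places that gene at chrX:53055046-53057190, upstream of Mir322, and there no transcript other than the miRNAs themselves covers any of the 7 hairpins. miR-450a-5p is made by both Mir450-1 and Mir450-2, which its reads do not tell apart, and mmu-miR-450a-2-3p was not analysed here.

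Levels are in RPM, the authors' reads of a miRNA scaled to the total of miRNA reads in its library. There were 2626353 to 4314134 miRNA reads per library, and 3 reads correspond to 0.695 to 1.14 RPM. M group replicate 1 stood apart from the other libraries. There, 30 of the 548 miRNAs tested were 4-fold or more above all 5 other libraries on the RPM + 1 scale, none of them a member of the cluster, against 0 or 1 elsewhere. The markers of hepatocytes were abundant, 4 of 4 being present in every library, with summed levels of 391439 to 419051 RPM in the J group and 391999 to 450361 RPM in the M group. The 5 leukocyte miRNAs summed to 595 to 866 RPM in the J group and to 796 and 1079.7 RPM in M group replicates 2 and 3. In M group replicate 1 they summed to 4228 RPM, most of it miR-142a-5p (3708.6 RPM) and miR-142a-3p (443.6 RPM). miR-150-5p was also highest there (47.2 RPM). By contrast, miR-223-3p (25.1 RPM) and miR-155-5p (3.43 RPM) were lower there than in M group replicates 2 and 3. The 5 bile duct miRNAs summed to between 950.1 and 2379 RPM in the J group and between 1203 and 4298 RPM in the M group. For the 4 stromal ones measured the sums were 12582 to 16889.6 and 16765 to 25242 RPM. Both sums were highest in M group replicate 1. Not so miR-141-3p (103.2 RPM, 109.8 in J group replicate 3), miR-214-3p (29.7, 33.3 in M group replicate 3) and miR-145a-5p (5427, 6964 in M group replicate 3). All other members of both lists were highest in M group replicate 1. Of these 4 stromal miRNAs, 3 passed the unadjusted thresholds used here as lower in the J group, as did 3.83% of all miRNAs tested, with adjusted p of 0.43 to 0.71 from limma. For the members and their arms, values without M group replicate 1 are given where they move by more than 1.5 times.

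The cluster as a whole was a small part of the liver miRNA. Its 12 members summed to 1036, 1189.7 and 1231 RPM in J group replicates 1, 2 and 3 and to 853, 1209.9 and 1097 RPM in the M group replicates. The means were 1152 ± 103 and 1053 ± 183 RPM (SD, n = 3 each), and the groups overlapped (exact two-sided permutation test, p = 0.6). The difference of 99.2 RPM came to -1.06 RPM without M group replicate 1 and to -57.4 RPM when miR-322-3p was left out of the sum.

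One arm carried most of these reads. miR-322-3p took 59.0% to 78.1% of the cluster in the 6 libraries and was the 65th most abundant of the 1039 miRNAs by mean RPM. miR-351-5p was 123rd and miR-322-5p 159th. At the other end, miR-542-5p was 519th, with 0 to 6 reads per library. Each member is a mature miRNA of 21 to 24 bases, so RPM was not divided by length, but ligation and amplification can favour some sequences over others.

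**Figure D1:**
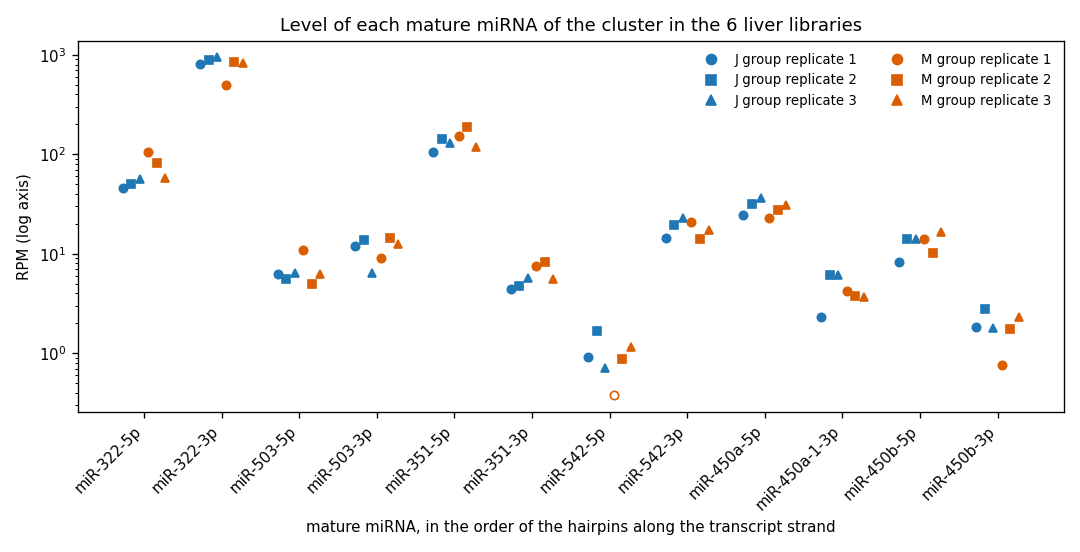
RPM of each of the 12 mature miRNAs (log axis) in the 6 liver libraries, in the order of the hairpins along the transcribed strand, with 1 point per library. The open circle marks miR-542-5p in M group replicate 1, which had 0 reads and is drawn at the RPM of 1 read. miR-322-3p lies above all other members in every library, and only for miR-322-5p do the J and M points not overlap.

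By mean RPM the order was miR-322-3p (804), miR-351-5p (140.6), miR-322-5p (66.6), miR-450a-5p (29.1), miR-542-3p (18.3), miR-450b-5p (12.9), miR-503-3p (11.4), miR-503-5p (6.76), miR-351-3p (6.04), miR-450a-1-3p (4.37), miR-450b-3p (1.88) and miR-542-5p (0.893). The range of miR-322-3p over the 6 libraries lay above that of miR-351-5p, and the range of miR-322-5p above that of miR-450a-5p. All other neighbours in the order had ranges that overlap. Within a library the order was still clear for several of these, since miR-351-5p exceeded miR-322-5p, miR-450a-5p exceeded miR-542-3p, and miR-542-3p exceeded miR-450b-5p in 6 of 6 libraries. miR-450b-5p and miR-503-3p changed places from library to library, with the former higher in 4 of 6.

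The level of a hairpin did not follow its place in the cluster. With both arms added, Mir322 had 609.97 to 999 RPM, whereas Mir503, the next hairpin 200 bases on, had 12.8 to 20.2 RPM. Mir351 had 111 to 198.8 RPM, Mir542 14.95 to 23.9, Mir450a 27.0 to 42.8 and Mir450b 10.2 to 19.1 RPM. Mir351 was thus above Mir503 in every library although it lies further downstream, and Mir450a, which adds up 2 hairpins, was above Mir542. None of the 6 sums separated the groups, and exact permutation tests gave p of 0.2 to 0.8 (adjusted p of 0.6 to 0.8 over the 6 hairpins), where the smallest possible with 3 against 3 is 0.1.

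**Figure D2:**
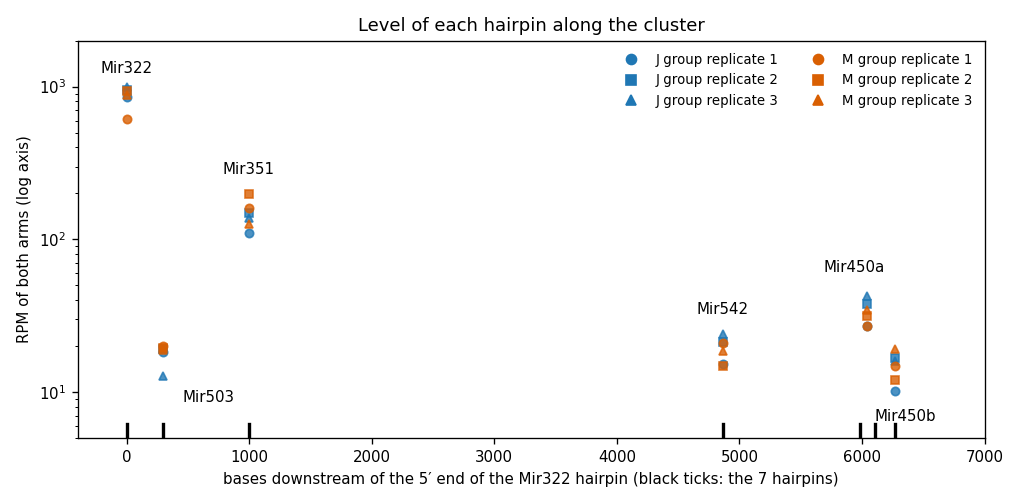
RPM of both arms of each hairpin (log axis) against the distance in bases from the 5′ end of the Mir322 hairpin, with 1 point per library and black ticks at the 7 hairpins. Mir450a is drawn midway between its 2 hairpins because they share miR-450a-5p. Mir322 is highest and Mir351 follows, while Mir503 between them lies with the distal hairpins.

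Each miRNA was then tested between J and M livers with limma on log2(RPM + 1). The 548 miRNAs with a group mean above 1 RPM were tested. The study's thresholds were used, a log2 fold change beyond 0.3 in either direction with an unadjusted p below 0.05. All 12 members passed this filter, miR-542-5p only through its J group mean of 1.10 RPM. No member of the cluster was called by limma, where 29 of the 548 miRNAs were (5.29%), 8 of them higher (1.46%) and 21 lower (3.83%) in the J group. The study does not name its test, so its own calls at these thresholds, also among the members, can differ. edgeR and DESeq2 on the recovered reads called 0 of the 12 as well, and in none of these 3 tests did a member have an unadjusted p under 0.05. Adjusted p from limma were 0.71 to 0.90 for the members, and the smallest over all 548 was 0.42. The median log2 fold change of the 12 members was -0.03, against -0.13 over all 548, with 6 values above 0 and 6 below. The standard errors were 0.25 to 0.43 on the log2 scale, and a p that misses the threshold does not show that the levels were equal.

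**Figure D3:**
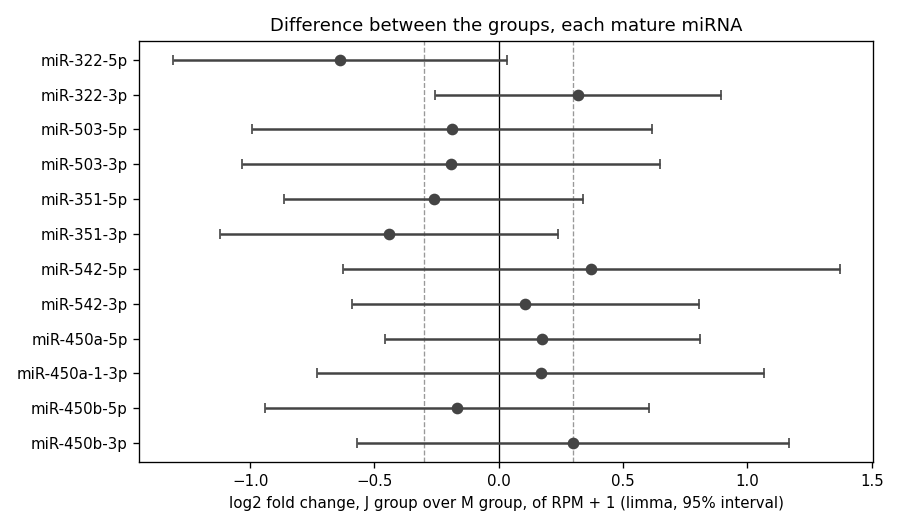
Log2 fold change of RPM + 1, J group over M group, for each member, with its 95% interval from limma on 3 libraries against 3. Dashed lines mark the study's threshold of 0.3 in either direction. All 12 intervals include 0, and the estimates run from -0.64 for miR-322-5p to 0.37 for miR-542-5p.

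miR-322-5p, the arm with the miR-15/16 seed, had the estimate furthest from 0 on the log2(RPM + 1) scale. That place depends on the setting, since miR-322-3p was further from 0 under quantile normalization, and miR-542-5p, with its 0 to 6 reads per library, was so by edgeR, DESeq2 or with 0.1 RPM added. It had 45.7, 50.8 and 56.7 RPM in J group replicates 1 to 3 and 107, 81.8 and 58.2 RPM in M group replicates 1 to 3, from 159 to 280 reads per library. All J values were below all M values, but M group replicate 3 was only just above the highest J library. The means were 51.0 ± 5.51 and 82.2 ± 24.2 RPM (SD, n = 3 each), 1.61-fold higher in the M group. On the log2 scale this came to -0.64 with a standard error of 0.29 and a 95% interval of -1.31 to 0.03, which just missed the unadjusted threshold and had an adjusted p = 0.71 from limma. Of the 548 miRNAs, 74 (13.5%) had J and M libraries that do not overlap, 51 of them (9.31%) with J below M, so 1 of 12 members is near that share. Without M group replicate 3 the log2 fold change was -0.86 and passed the study's thresholds, as did 6.69% of the miRNAs tested in that setting (adjusted p = 0.56 from limma), and without M group replicate 1 it was -0.43 and did not pass.

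Its partner arm, miR-322-3p, was high in 5 of the libraries. It had 809, 896 and 942 RPM in the J group and 503.4, 851 and 822 RPM in the M group. M group replicate 1 was far below the rest, and the other M libraries lay within the J range. The means were 882 ± 67.6 and 726 ± 193 RPM (SD, n = 3 each), and the fitted log2 difference of 0.32 had a standard error of 0.25 (adjusted p = 0.71 from limma). Without M group replicate 1 it was 0.07.

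miR-503 is the close relative of miR-322 in the cluster, and both of its arms were rare. miR-503-5p, the arm with the cell cycle seed, had 6.26, 5.58 and 6.42 RPM in the J group and 11.04, 4.98 and 6.29 RPM in the M group. M group replicate 1 was the highest and M group replicate 2 the lowest of all 6, so the groups overlapped. The log2 fold change, -0.19 with a standard error of 0.34, had an adjusted p = 0.87 from limma. It was 0.10 without M group replicate 1. miR-503-3p had 12.1, 13.7 and 6.42 RPM in the J group and 9.14, 14.4 and 12.6 RPM in the M group, with the lowest value in J group replicate 3 (log2 fold change -0.19, standard error 0.36, and -0.36 without M group replicate 1).

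miR-351, with the miR-125 seed on its 5p arm, was the next most abundant hairpin after miR-322. miR-351-5p had 106, 143.2 and 132 RPM in the J group and 152, 191 and 119.9 RPM in the M group. The highest value was in M group replicate 2, and M group replicate 3 lay within the J range. The means were 127 ± 18.8 and 154 ± 35.4 RPM (SD, n = 3 each), and the log2 fold change of -0.26, with a standard error of 0.26 and an adjusted p = 0.76 from limma, was 0.0076 under quantile normalization. It was -0.097 without M group replicate 2, -0.14 without J group replicate 1 and -0.43 without M group replicate 3. miR-351-3p was lower by far, with 4.404, 4.75 and 5.70 RPM in the J group and 7.62, 8.21 and 5.59 RPM in the M group, or 16 to 28 reads per library. Here M group replicates 1 and 2 were above every J library and M group replicate 3 was not. The fitted log2 difference of -0.44 had a standard error of 0.29, a 95% interval of -1.12 to 0.24 and an adjusted p = 0.71 from limma.

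For miR-542 the 3p arm, which targets Birc5, held nearly all reads. miR-542-3p had 14.4, 19.5 and 23.2 RPM in the J group and 20.9, 14.1 and 17.5 RPM in the M group. The groups overlapped over most of their range, and the log2 fold change of 0.11 had a standard error of 0.30 (adjusted p = 0.90 from limma), or 0.24 without M group replicate 1. miR-542-5p had 4, 6 and 2 reads in the J group and 0, 3 and 5 reads in the M group. The count of 0 of 2626353 reads in M group replicate 1 allows a level of up to 1.14 RPM (3 reads), which is above the 0.927 and 0.713 RPM of J group replicates 1 and 3, and no difference was detectable at this depth. Without that library its log2 fold change went from 0.37 to 0.035.

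The miR-450 hairpins at the far end of the cluster were low, and their J and M values overlapped. miR-450a-5p had 24.8, 31.5 and 36.7 RPM in the J group and 22.8, 27.9 and 31.0 RPM in the M group. miR-450b-5p had 8.34, 13.96 and 14.3 RPM in the J group and 14.1, 10.3 and 16.8 RPM in the M group. Both overlapped between the groups, with log2 fold changes of 0.18 (standard error 0.27) and -0.17 (standard error 0.33). Of the 3p arms with nearly the same sequence, miR-450a-1-3p had 2.32, 6.14 and 6.06 RPM in the J group and 4.19, 3.81 and 3.72 RPM in the M group. miR-450b-3p had 1.85, 2.79 and 1.78 RPM in the J group and 0.762, 1.76 and 2.33 RPM in the M group, from 2 to 10 reads per library. J group replicate 1 was the lowest for miR-450a-1-3p and M group replicate 1 for miR-450b-3p, and the groups overlapped for both. Without M group replicate 1 the log2 fold change was 0.059 for miR-450a-5p and 0.038 for miR-450b-3p, which is 0.30 with it.

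The libraries did not rank the members alike. Of the 12, 5 were lowest in J group replicate 1 and 4 in M group replicate 1, while the highest value lay in J group replicate 2, J group replicate 3 or M group replicate 2 for 3 members each, in M group replicate 1 for 2 and in M group replicate 3 for 1. J group replicate 1 held the highest value of 0 members.

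The arms of a hairpin come from the same precursor and the same library, so the share of each does not depend on the scaling between libraries. The 6 hairpins fell into 3 kinds. Mir351, Mir450a and Mir450b gave mostly the 5p arm, with 95.2% to 96.8%, 83.7% to 91.5% and 81.8% to 94.9% of the reads of both arms. For Mir450a the 5p arm is that of both hairpins and the 3p arm that of Mir450-1 only. Mir322 and Mir542 gave mostly the 3p arm, with 5.34% to 17.5% and 0.00% to 7.89% of reads from the 5p arm. Mir503 was mixed, with 25.8% to 54.7% from the 5p arm, on 36 to 81 reads per library. Mir322 and Mir503, though neighbours with related 5p seeds, thus differed in the balance of their arms, and the 5p share of Mir503 was above that of Mir322 in every library.

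**Figure D4:**
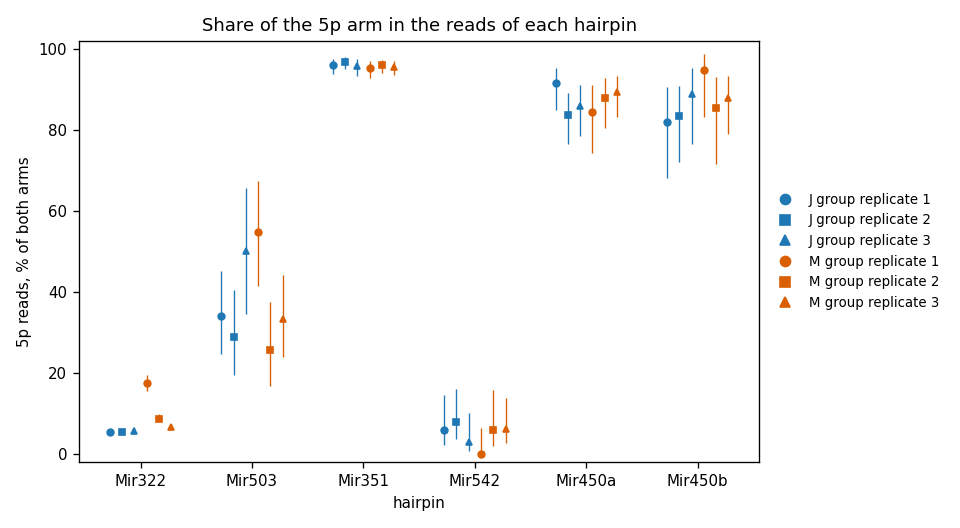
Reads of the 5p arm in percent of the reads of both arms of each hairpin, with 1 point per library and its 95% Wilson interval, which covers counting error only. Mir351, Mir450a and Mir450b lie at 81.8% or above, Mir322 and Mir542 at 17.5% or below, and Mir503 between them.

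In Mir322 the balance of the arms did not overlap between the groups. The 5p share was 5.34%, 5.37% and 5.68% in J group replicates 1, 2 and 3 and 17.5%, 8.77% and 6.61% in M group replicates 1, 2 and 3. The J libraries were close together and every M library lay above them. The 3p arm thus exceeded the 5p arm 16.6-fold to 17.7-fold in the J group, and 4.72-fold, 10.4-fold and 14.1-fold in the M group replicates. The 95% Wilson intervals of M group replicates 1 (15.7% to 19.4%) and 2 (7.83% to 9.80%) lay above those of all J libraries, while that of M group replicate 3 (5.86% to 7.45%) overlapped those of J group replicates 1 (4.66% to 6.12%), 2 (4.66% to 6.18%) and 3 (4.88% to 6.60%).

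**Figure D5:**
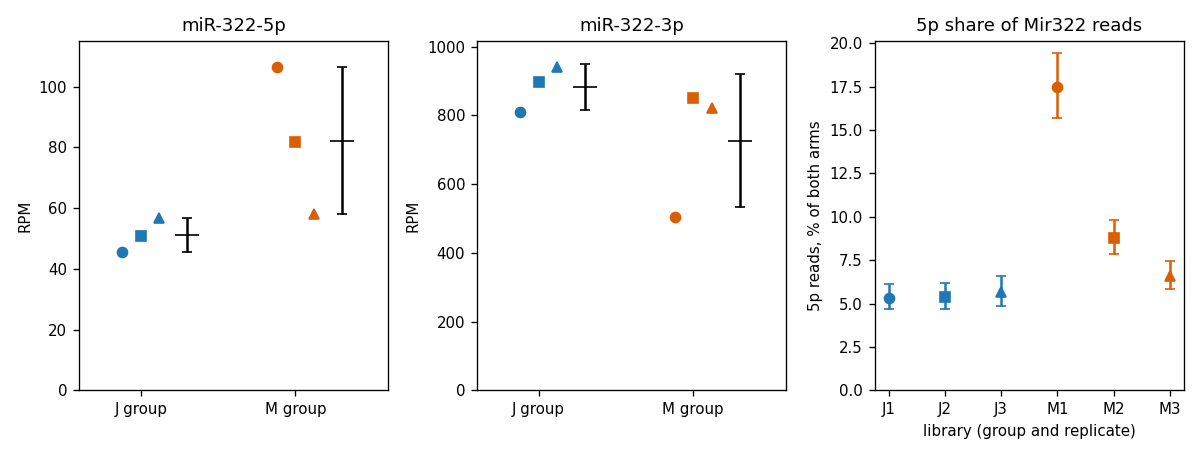
Mir322 arms in J group (blue) and M group (orange) libraries, with circles, squares and triangles for replicates 1, 2 and 3. The left and middle panels give RPM with the group mean and SD beside the points, and the right panel gives 5p reads in percent of both arms with 95% Wilson intervals. The 5p share lies between 5.34% and 5.68% in the J libraries and is 17.5%, 8.77% and 6.61% in the M libraries.

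The mean 5p shares of Mir322 were 5.46% ± 0.186 and 10.95% ± 5.75 (SD, n = 3 each), a difference of -5.49 percentage points that was -2.23 without M group replicate 1. An exact two-sided permutation test gave p = 0.1, the smallest that 3 against 3 allow, and an adjusted p of 0.6 over the 6 hairpins. J and M livers had shares that do not overlap for 14 of 154 mouse hairpins with both arms measured (9.09%), and for 7 (4.55%) the J libraries were the lower ones. The log2 ratio of the arms was also tested by limma over these 154 hairpins. For Mir322 the difference, J minus M, was -0.96 with a standard error of 0.40 and a 95% interval of -1.82 to -0.09. It passed the same thresholds, as 9 of the 154 hairpins did (5.84%, with 6 or 3.9% lower in the J group), and it did not pass the correction (adjusted p = 0.55 from limma). Without M group replicate 1 the difference was -0.51 and no longer passed, and it missed the threshold without J group replicate 1 (-0.94) or 2 (-0.94) as well.

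In the other hairpins the arm shares overlapped between the groups. Mir503 had 34.2%, 29.0% and 50.0% in the J group and 54.7%, 25.8% and 33.3% in the M group. Mir450b had 81.8%, 83.3% and 88.9% in the J group and 94.9%, 85.4% and 87.8% in the M group. Mir351 varied least, with 96.2% ± 0.503 and 95.5% ± 0.322 (SD, n = 3 each). The exact tests gave p of 0.2 to 1.0 for these 5 hairpins. Leaving out M group replicate 1 took the difference in 5p share, J minus M, from -4.67 to -1.91 percentage points for Mir450b, from -0.22 to 8.18 for Mir503, from 1.603 to -0.42 for Mir542 and from -0.25 to -1.62 for Mir450a. The log2 arm ratio of Mir450b went from -0.47 to -0.17.

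Seen against the miRNAs with the same seeds, the members are a small part. The 6 miRNAs with the seed of miR-322-5p summed to 2831 to 5094 RPM, most of it miR-16-5p, and miR-322-5p was 1.57% to 2.74% of that sum. miR-351-5p was 4.05% to 6.40% of the summed level of its seed family, in which miR-125b-5p is the most abundant. Neither share separated the groups (exact permutation tests, p = 0.4 and 0.3), and the difference for miR-351-5p was -0.97 percentage points, or -0.59 without M group replicate 1.

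Among the 7 miRNAs chosen as seed relatives, 0 of 7 passed the thresholds, where 5.29% of all miRNAs did, a share at which none of 7 is no result. Their median log2 fold change was -0.21, against -0.13 over all 548. miR-16-5p, the main miRNA of the group that restrains the cell cycle, had 2420.4, 2398 and 2943 RPM in the J group and 4323, 2547 and 3138 RPM in the M group. Its fitted log2 difference was -0.34, with a standard error of 0.22 and an adjusted p = 0.71 from limma. M group replicate 1 was the highest by far and the other M libraries overlapped the J group. miR-15b-5p had 29.4, 51.6 and 39.2 RPM against 189, 34.0 and 57.3 RPM, again highest in M group replicate 1, and its log2 fold change of -0.86 (standard error 0.60) was the largest of the 7. Without that library it was -0.17, and that of miR-16-5p was -0.13. miR-15a-5p (-0.21), miR-195a-5p (-0.21), miR-497a-5p (0.08), miR-125a-5p (-0.03) and miR-125b-5p (0.05) had log2 fold changes nearer to 0, and all 7 overlapped between the groups, as did all but 13.5% of the miRNAs tested. Leaving out M group replicate 1 turned miR-15a-5p to 0.0039 and miR-125b-5p to -0.042, and gave 0.20 for miR-497a-5p and -0.16 for miR-125a-5p.

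The miRNAs outside the cluster whose log2(RPM + 1) followed that of miR-322-5p most closely over the 6 libraries were miR-146a-5p (Pearson r = 0.98), miR-200c-3p (0.98), miR-425-3p (0.97), miR-5113 (0.97) and miR-362-5p (0.96). These are the highest of 547 values over 6 points in 2 groups and are given as a description only. All 5 were highest in M group replicate 1 and next highest in M group replicate 2, as was miR-322-5p. miR-5113 had only 1 to 6 reads per library. miR-146a-5p, for instance, had 236, 225 and 262 RPM in the J group and 1798, 845 and 384 RPM in the M group. Within the cluster, miR-351-3p was 11th of the 547 (r = 0.93) and miR-351-5p 119th (0.70), whereas miR-503-5p was 161st (0.60). The partner arm miR-322-3p was 515th (-0.76). Below it came the rare miR-542-5p (524th, -0.79, or -0.31 without M group replicate 1) and miR-450b-3p (528th, -0.80, or -0.37). Over the 5 libraries other than M group replicate 1, r was 0.88 to 0.95 for the 5 nearest miRNAs, 0.99 for miR-351-3p and 0.87 for miR-351-5p, but it was 0.066 for miR-322-3p and -0.71 for miR-503-5p, so the values of these last members rest on that library. The part of the leukocyte, bile duct and stromal miRNAs of M group replicate 1 in these values was not tested.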

How the data were processed

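Small RNA libraries (NEBNext) were sequenced on an Illumina HiSeq. After read filtering and matching to Rfam and miRBase, the authors deposited RPM, in which each miRNA is scaled to the total miRNA reads of its library. The build mm9 is named in the submitters' processing notes. The aligner, the mismatch rule and the treatment of reads that match several miRNAs are not given in the sources used here. All RPM values (100%, within 0.02 reads) were whole multiples of the RPM of 1 read, and the whole reads were recovered from them. The names of 9 members carry a range of bases and a length, which equals the RefSeq length. The range is 1 to 17 of 21 for miR-322-3p, and what it stands for is not stated.

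Groups were taken from the library titles. The code of M group replicate 1 begins with MX1, those of M group replicates 2 and 3 with MX2 and those of the J group with GJ2. What these prefixes stand for is not stated. Rows were compared by limma 3.58.1 in R 4.3.3 with a trend in the variance, two-sided, on log2(RPM + 1), over all 548 miRNAs with a mean above 1 RPM in a group, with Benjamini-Hochberg adjustment over all of them. Called means a log2 fold change beyond 0.3 in either direction with an unadjusted p below 0.05. The study names these thresholds and not the test behind its p. Sums and shares were compared by exact two-sided permutation tests (scipy 1.17.1). Arm ratios were taken as log2((5p RPM + 1)/(3p RPM + 1)) over hairpins with at least 10 reads, both arms added together, in every library. This fit and the values of the seed relatives and correlations without M group replicate 1 were added after the values were seen. Alternatives were an added 0.1 or 10 RPM, no filter or one at 10 RPM, median-of-ratios scaling, quantile normalization, edgeR 4.0.16 (TMM, quasi-likelihood), DESeq2 1.42.0, a replicate term and each library left out. The text names all members, 7 miRNAs with the seeds of miR-322-5p and miR-351-5p, and the 5 miRNAs most like miR-322-5p. The members were taken by name, but the cluster, the lists and the tests were chosen with earlier results of these data known. Wilson intervals and limits in reads cover counting error only, whereas the intervals from limma rest on the spread between libraries. The scripts were tested on simulated data. Markers were miRNAs of hepatocytes, leukocytes, stroma, bile duct, endothelium (4166 to 6718 RPM in all libraries), red cells (2534 to 9724 RPM), pancreas (1.14 to 25.4 RPM) and muscle (2.50 to 22.5 RPM). Positions are those of GRCm38, which was not used to place reads.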

Additional observations from a re-analysis of the deposited data

How the results depend on the processing

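Of the 15 alternatives to the comparison of the 12 members, 13 called 0 of them. The filter at a mean of 10 RPM, which tests 7 of the 12, called 1, miR-322-5p, where 24 of all 302 miRNAs (7.95%) were called, and with each library left out the count was 0 to 1, the 1 being miR-322-5p without M group replicate 3 (37 of 553 miRNAs called, 6.69%). Over all miRNAs tested the count of 29 (8 higher, 21 lower in the J group) rose to 45 with edgeR, and it was 21 to 46 with a library left out, highest without M group replicate 2. Scaling by the median of ratios gave 18 higher and 14 lower, quantile normalization 20 and 11, edgeR 18 and 27 and DESeq2 13 and 23. The median log2 fold change of all miRNAs went from -0.13 to 0.08 under quantile normalization, -0.02 under edgeR and -0.01 under DESeq2, relative to which -0.42, -0.58 and -0.58 for miR-322-5p are to be read. miR-322-5p, miR-322-3p, miR-351-3p, miR-450a-5p, miR-450b-3p and miR-542-5p kept their direction under all alternatives that tested them. Quantile normalization turned miR-351-5p to 0.0076. It also took miR-322-3p to 0.66, miR-450a-5p to 0.44 and miR-542-3p to 0.25, further from 0. Nearer to 0 were miR-503-5p at -0.04, miR-503-3p at -0.087 and miR-450b-5p at -0.01. When each library was left out in turn, the log2 fold changes ran from -0.35 to 0.064 for miR-450b-5p, from -0.019 to 0.53 for miR-450a-1-3p, from -0.43 to -0.097 for miR-351-5p, from 0.049 to 0.32 for miR-450a-5p, from -0.38 to 0.11 for miR-503-3p, from -0.40 to 0.10 for miR-503-5p and from -0.041 to 0.29 for miR-542-3p. The summed RPM differed by -1.06 to 178 RPM with a library left out and by -57.4 RPM without miR-322-3p. The difference in 5p share, in percentage points, was -7.66 to -2.23 for Mir322, -6.35 to 8.18 for Mir503, -0.42 to 2.93 for Mir542 and -2.48 to 1.40 for Mir450a, and the log2 arm ratio ranged from -0.34 to 0.46 for Mir503, from -0.20 to 0.55 for Mir542 and from -0.21 to 0.17 for Mir450a. The cause of these changes was not tested.

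The replicate numbers are not known to pair the mice. Deviations of same-numbered libraries correlated by 0.05, 0.06 and -0.01, and J group replicate 1 correlated best with M group replicate 3. With the replicate number as a block limma called 27 miRNAs and 0 members, and miR-322-5p had an adjusted p = 0.72 from limma. The Mir322 5p share had p = 0.25 in an exact sign-flip permutation over the 3 pairs, the smallest possible. Depth limits miR-542-5p, which had 0 to 6 reads per library, and miR-450b-3p, which had 2 to 10.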
